A study of Mus musculus with 4 samples.

Results

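The genes described are 34 enzymes and regulators that make fatty acids and assemble them into triglyceride. They were chosen by name, and each probe set whose only platform gene symbol was one of these names was taken, which gave 80 of the 34945 probe sets with 1 symbol and all 34 genes of the 18193 named on the array. Livers from the OGFRL1 group (2 arrays) were compared with livers from the EGFP group (2 arrays). Both groups were BALB/c nu/nu nude mice, which lack mature T cells, that had been given 0.25 ml/kg carbon tetrachloride 23 times, a hepatotoxin that scars the liver on repeated dosing. Each mouse then had 1000000 human bone marrow mesenchymal stem cells placed in the spleen, carrying OGFRL1 in one group and the fluorescent protein EGFP in the other. Part of the liver was removed on day 21, and the regenerating tissue was taken on day 8 after that operation. The control livers thus carried the injury, the human cells and the hepatectomy too, and no liver without cells or without injury was analysed here. The probe sets read mouse genes while the transgene was in human cells, so these arrays do not check the transgene. The sources used here state no age or sex, nor whether a group's arrays came from separate mice. The p-values therefore measure only the spread between arrays, which may be technical.

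Hepatocytes make fatty acids from citrate that leaves the mitochondrion. ATP citrate lyase splits it to acetyl-CoA, acetyl-CoA carboxylase makes malonyl-CoA, and fatty acid synthase builds palmitate at the cost of NADPH. Palmitate is then lengthened by elongases of the endoplasmic reticulum, given double bonds by desaturases, and joined to glycerol by a chain of acyltransferases and a phosphatase. In liver the transcription factors SREBP-1c (gene Srebf1), driven by insulin, and ChREBP (gene Mlxipl), driven by glucose, are known to turn on most of these genes together.

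The deposited values were MAS5 signals on a linear scale, and the 4 arrays had medians of 11.6 to 12.5. Across the 11942 genes tested, arrays correlated at 0.984 within the OGFRL1 group and 0.972 within the EGFP group, and at 0.965 to 0.973 between groups, over genes that are not independent replicates. All 18 spike-in control probe sets (bioB, bioC, bioD and cre) read lower in the OGFRL1 group. Standard protocols add these labelled RNAs in equal amount to the hybridisation mix, after the liver RNA has been labelled. Their mean log2 fold change was -0.35 (range -0.74 to -0.03), while the median over all genes was 0.04. The shift was uneven, with a mean log2 signal of 9.35 on OGFRL1 1 and 9.63 on OGFRL1 2, against 9.83 on EGFP 1 and 9.84 on EGFP 2. Added after labelling, these controls do not measure the amount of liver RNA, and scaling to them is given only as another setting. Liver identity was plain in every array, with Alb, serum albumin, at 7041 and 7930 in OGFRL1 livers against 16107 and 9313 in EGFP livers.

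Most of the fatty acid and triglyceride genes read lower in OGFRL1 livers. All 34 passed the minimum on mean signal, 24 had a log2 fold change below 0 (70.6%, against 44.4% of all genes tested), and their median was -0.41; after scaling to the spike-ins 18 were below 0 and the median was -0.06. In 22 members (64.7%) both OGFRL1 arrays lay below both EGFP arrays, against 20.5% of all genes, and in 4 members (11.8%) both lay above, against 27%. No single member passed the threshold of 0.05 in limma's moderated test with Benjamini-Hochberg adjustment over all genes, which 61 of 11942 genes (0.511%) did. The lowest adjusted p among the members was 0.0512. At an unadjusted p under 0.05 there were 16 members lower and 2 higher, where all genes gave 6.28% and 9.01%. Whether members pass the threshold depends on single arrays. Counts with an array left out are given at the end, beside those over all genes. Fold changes are on the log2(signal + 3.51) scale, OGFRL1 minus EGFP, with the standard error (SE) of the fit. In bulk liver, fewer cells of a type and less RNA per cell cannot be told apart.

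**Figure D1:**
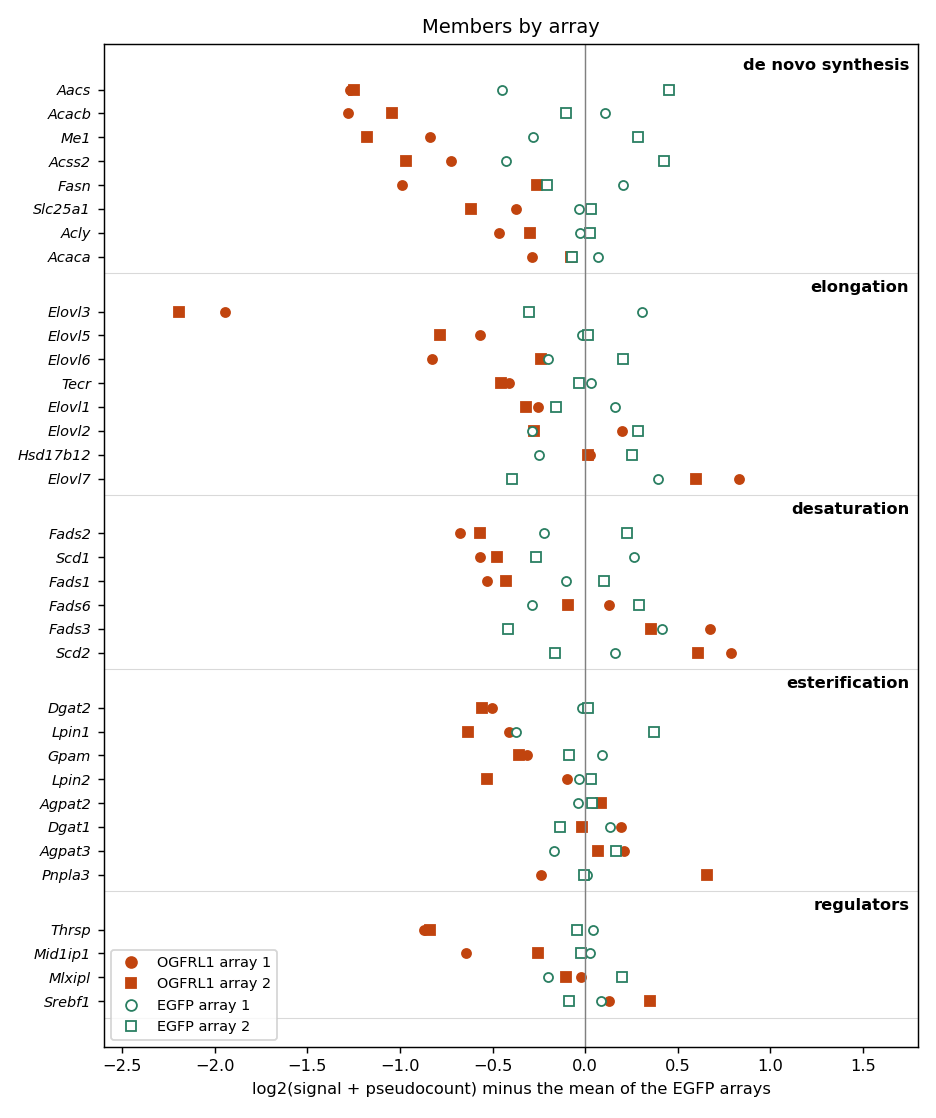
Each member's log2(signal + pseudocount) on each array, set against the mean of the EGFP arrays (x axis, log2 units), with members grouped by role and ordered by fold change within it. Filled symbols are OGFRL1 arrays and open symbols EGFP arrays; all 8 genes of de novo synthesis have both filled symbols left of both open ones, while Scd2, Elovl7, Srebf1 and Agpat2 have them on the right.

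The genes grouped as de novo synthesis, most of which make the acyl chain or supply its carbon and NADPH, had the lowest median of the role groups at -0.73. All 8 had both OGFRL1 arrays below both EGFP arrays (20.5% of all genes did), and 6 had an unadjusted p under 0.05. Acacb encodes the acetyl-CoA carboxylase of the mitochondrial surface, whose malonyl-CoA restrains fatty acid import. It had signals of 67.4 and 80.0 in OGFRL1 livers, against 182 and 157 in EGFP livers. Its log2 fold change was -1.16 ± 0.18, or 0.446 of the EGFP level, and it missed the threshold (limma adjusted p = 0.0554). Acaca, the cytosolic carboxylase that feeds fatty acid synthase, had 230.3 and 267 in OGFRL1 livers, against 296 and 268 in EGFP livers (-0.18 ± 0.15, and 0.16 with spike-in scaling). The nearest arrays of the groups were thus almost level for Acaca and far apart for Acacb, and whether the carboxylases differ from each other was not tested.

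Me1, the cytosolic malic enzyme that yields NADPH, had 529 and 417 in OGFRL1 livers, against 779 and 1156 in EGFP livers. The log2 fold change was -1.01 ± 0.22 (limma adjusted p = 0.11), and the lower EGFP array still lay well above both OGFRL1 arrays. Aacs, acetoacetyl-CoA synthetase, which returns ketone body carbon to lipid synthesis, had 116 and 117 in OGFRL1 livers, against 207 and 389 in EGFP livers (-1.26 ± 0.29, adjusted p = 0.116). The EGFP arrays differed widely here, and the value was -0.81 without EGFP 2 and -1.71 without EGFP 1. Slc25a1, the mitochondrial citrate carrier, had 929 and 784 in OGFRL1 livers, against 1178 and 1230.0 in EGFP livers (-0.49 ± 0.14, adjusted p = 0.183). Acss2, which makes acetyl-CoA from acetate, had a log2 fold change of -0.84 ± 0.28 (limma adjusted p = 0.224). Its value was -0.42 without EGFP 2 and -1.27 without EGFP 1.

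Fasn, the fatty acid synthase itself, had 694 and 1153 in OGFRL1 livers, against 1591 and 1197 in EGFP livers. OGFRL1 2 came within a few percent of EGFP 2, and the log2 fold change of -0.62 ± 0.26 had an adjusted p of 0.334 in limma. It rests on single arrays, being -0.26 without OGFRL1 1 and -0.99 without OGFRL1 2. Acly, ATP citrate lyase, had 1380 and 1546 in OGFRL1 livers, against 1870 and 1939 in EGFP livers. Its arrays were close within each group, and its log2 fold change was small at -0.38 ± 0.13 (adjusted p = 0.247). Acly, Acaca and Fasn form the central line of the pathway, and differences in fold change between them and the other genes of the role were not tested.

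Among the regulators, Thrsp stood apart from the transcription factors. Thrsp, also known as Spot14, is a lipogenic nuclear protein that follows carbohydrate feeding and thyroid hormone. It had 3830 and 3930 in OGFRL1 livers, against 7236 and 6807 in EGFP livers, and the arrays of a group lay close together and far from those of the other. The log2 fold change was -0.85 ± 0.13, or 0.553 of the EGFP level, and it just missed the threshold (limma adjusted p = 0.0554). Mid1ip1, the relative of Thrsp that helps acetyl-CoA carboxylase to polymerise, had 642 and 839 in OGFRL1 livers, against 1022 and 987 in EGFP livers (-0.45 ± 0.16). Its groups did not overlap, its adjusted p was 0.27, and its value was -0.26 without OGFRL1 1 and -0.64 without OGFRL1 2.

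Srebf1 did not read lower. It had 1782 and 2080.5 in OGFRL1 livers, against 1730.3 and 1533 in EGFP livers, so that both OGFRL1 arrays were above both EGFP arrays. The log2 fold change was 0.24 ± 0.15 (limma adjusted p = 0.5), and the platform names the gene without an isoform. Mlxipl had 320 and 302 in OGFRL1 livers, against 282 and 373 in EGFP livers, with overlapping groups (-0.06 ± 0.17, adjusted p = 0.904). Neither transcription factor thus read clearly lower at the RNA level, and RNA does not show how much SREBP-1c or ChREBP is active.

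The RefSeq promoter table (GRCm38.p6) held 28 of the 34 members, each with the bases from 250 before to 50 after a transcription start, and these windows were searched on both strands for motifs of known lipogenic factors. The sterol regulatory element TCACNCCAC was in 1 of 28 members, Mlxipl, and in 1.44% of all 27025 genes of the table. The E-box CACGTG was in 4 members (14.3%, against 8.09% of all genes). The NF-Y box CCAAT was in 17 (60.7%, against 41.1%), and the Sp1 box GGGCGG in 19 (67.9%, against 38.2%). Some genes have several windows, and among the 21 members with 1 window the NF-Y box was in 52.4% (38.2% of all such genes) and the Sp1 box in 57.1% (35.2%). These shares describe letters in a window and say nothing of binding. The NF-Y box was also in Srebf1, Fads3, Pnpla3 and Hsd17b12, whose log2 fold changes were above 0, while the other members with it were below 0. Of all 34 members 70.6% were below 0, whether or not they hold the box. A link between the box and a lower value was not tested. The 250 bases before the start follow for 4 members that read lower and hold the NF-Y box, with each CCAAT or its reverse complement in capitals, 5′ to 3′ on the gene's strand.
Thrsp (chr7:97417551-97417800, minus strand): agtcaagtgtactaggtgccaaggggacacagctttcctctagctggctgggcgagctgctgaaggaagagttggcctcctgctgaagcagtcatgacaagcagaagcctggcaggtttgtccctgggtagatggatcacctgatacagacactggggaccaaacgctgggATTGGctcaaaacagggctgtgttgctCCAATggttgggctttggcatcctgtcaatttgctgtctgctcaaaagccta
Acacb (chr5:114165268-114165517, plus strand): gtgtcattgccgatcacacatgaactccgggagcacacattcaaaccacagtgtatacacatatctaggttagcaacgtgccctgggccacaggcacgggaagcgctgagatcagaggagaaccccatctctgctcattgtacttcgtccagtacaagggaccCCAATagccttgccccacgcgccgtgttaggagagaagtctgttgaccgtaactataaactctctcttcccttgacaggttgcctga
Fasn (chr11:120824548-120824797, minus strand): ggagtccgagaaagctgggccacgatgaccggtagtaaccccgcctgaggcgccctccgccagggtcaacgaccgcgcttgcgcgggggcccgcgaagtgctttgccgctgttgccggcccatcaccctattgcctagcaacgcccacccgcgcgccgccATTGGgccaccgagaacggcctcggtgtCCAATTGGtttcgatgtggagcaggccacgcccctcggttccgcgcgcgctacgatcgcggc
Elovl5 (chr9:77917115-77917364, plus strand): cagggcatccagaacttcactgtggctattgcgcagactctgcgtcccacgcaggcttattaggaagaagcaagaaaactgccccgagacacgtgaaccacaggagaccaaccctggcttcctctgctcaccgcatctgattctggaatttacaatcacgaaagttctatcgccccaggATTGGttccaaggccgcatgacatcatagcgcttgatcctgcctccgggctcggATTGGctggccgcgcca
Fasn holds 3 such boxes, of which a pair overlaps on opposite strands 62 and 59 bases before the start. Thrsp holds 2, at 79 and 52 bases before the start, Elovl5 has 2 and Acacb 1, at 87 bases.

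For elongation the median was -0.36 (6 of 8 genes below 0), and the role held both the lowest and the highest fold change of all members. Elovl3, an elongase of saturated and monounsaturated chains that in liver is known for its male bias and daily rhythm, had 14.9 and 12.01 in OGFRL1 livers, against 84.2 and 53.9 in EGFP livers. The log2 fold change was -2.07 ± 0.30, or 0.238 of the EGFP level, with the lowest adjusted p of the members (limma, 0.0512). It passed with median scaling (adjusted p = 0.045), 4 times the pseudocount (0.048), spike-in scaling (3.28e-05), the replicate number as a block (0.04996) and without either EGFP array (0.028 without EGFP 1 and 0.00983 without EGFP 2). It did not pass with quantile normalization (0.0545), the mean over probe sets (0.0746), no filter (0.117), no intensity trend (0.15) or without OGFRL1 1 (0.262) or OGFRL1 2 (0.363). The OGFRL1 signals of Elovl3 lie near the minimum of 11.6, so its fold change rests on dim values. A signal minimum 4 times higher left Elovl3 out. Elovl5, which lengthens polyunsaturated chains and is bright in liver, had 3539 and 3043 in OGFRL1 livers, against 5184 and 5314 in EGFP livers (-0.68 ± 0.14, adjusted p = 0.1001). Its groups were far apart relative to the gap within them.

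Tecr, the reductase that closes each elongation cycle, had 1428 and 1382 in OGFRL1 livers, against 1939 and 1858 in EGFP livers (-0.43 ± 0.13, limma adjusted p = 0.189). Elovl6, which turns palmitate into stearate, had a log2 fold change of -0.53 ± 0.23, which was -0.24 without OGFRL1 1 and -0.83 without OGFRL1 2. Elovl1, an elongase of very long saturated chains, was at -0.29 ± 0.15 (0.06 with spike-in scaling, -0.13 without EGFP 1 and -0.45 without EGFP 2). Elovl2, the elongase of the longest polyunsaturated chains, was at -0.04 ± 0.24, and Hsd17b12, the ketoreductase of the cycle, at 0.02 ± 0.19, both with overlapping groups. Elovl7 ran the other way, with 94.7 and 80.4 in OGFRL1 livers, against 69.1 and 38.6 in EGFP livers (0.71 ± 0.29, adjusted p = 0.316). The EGFP arrays of this dim elongase differed from each other by more than OGFRL1 2 did from EGFP 1. The Elovl7 value was 0.32 without EGFP 2 and 1.11 without EGFP 1. Of the enzymes common to every round, Tecr was lower without overlap while Hsd17b12 overlapped.

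**Figure D2:**
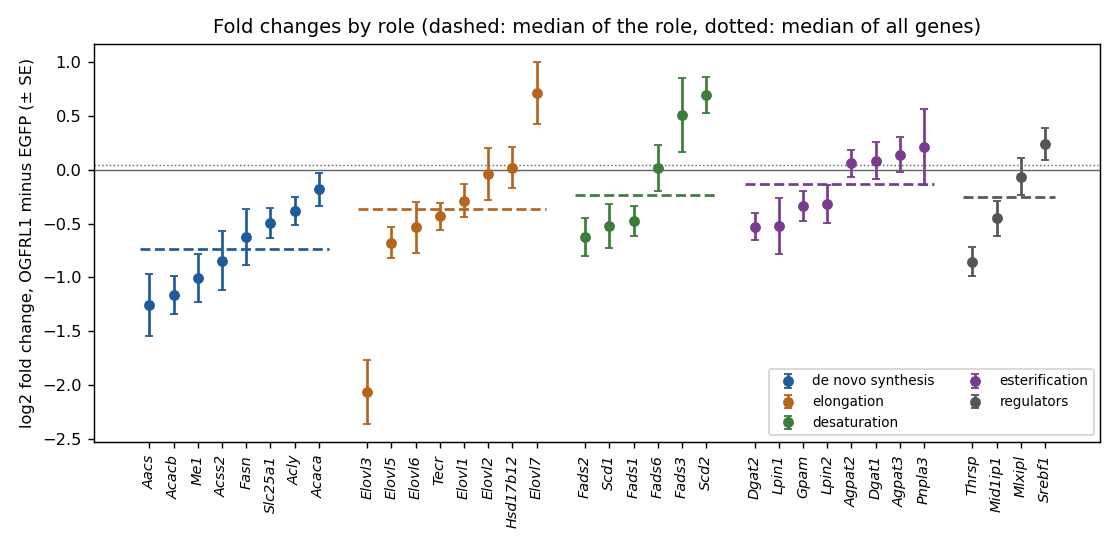
Log2 fold change of each member (y axis, OGFRL1 minus EGFP, on the log2(signal + pseudocount) scale) with the SE of the limma fit as bars, grouped by role. Dashed lines are role medians, from -0.73 for de novo synthesis to -0.13 for esterification, and the dotted line at 0.04 is the median of all 11942 genes.

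The desaturases split into 3 lower and 3 higher members, with a median of -0.23 that was 0.02 after quantile normalization and 0.12 after spike-in scaling. Fads2 and Fads1, which act in turn on the path to arachidonic and docosahexaenoic acid, were lower. Fads2 had 1025 and 1105 in OGFRL1 livers, against 1406 and 1919 in EGFP livers (-0.62 ± 0.18, limma adjusted p = 0.179). Its value was -0.40 without EGFP 2 and -0.85 without EGFP 1. Fads1 had 1590 and 1702 in OGFRL1 livers, against 2135 and 2464 in EGFP livers (-0.48 ± 0.14, adjusted p = 0.189). For both genes even the lower EGFP array was above both OGFRL1 arrays. Their neighbour Fads3, a desaturase of sphingoid bases, was dim and overlapped between groups (0.51 ± 0.35, and 0.099 without EGFP 2), and so did Fads6 (0.02 ± 0.21). In RefSeq gene order no protein-coding gene lies between Fads3 and Fads2 or between Fads2 and Fads1 on chromosome 19, which holds 7 of the 34 members.

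The stearoyl-CoA desaturases, which place the first double bond in stearate and palmitate, gave opposite signs. Scd2, an isoform best known from brain and neonatal liver, had 568 and 503 in OGFRL1 livers, against 368 and 293 in EGFP livers. The log2 fold change was 0.70 ± 0.16, or 1.62 times the EGFP level (limma adjusted p = 0.125), and both OGFRL1 arrays were above both EGFP arrays (27% of all genes were). Scd1, the main hepatic isoform and the brightest member, had 7676 and 8188 in OGFRL1 livers, against 13666 and 9464 in EGFP livers (-0.52 ± 0.20, adjusted p = 0.295). Much of that gap rests on EGFP 1, since the value was -0.26 without it and -0.79 without EGFP 2, and quantile normalization put Scd1 at 0.03. A second Scd1 probe set had 1627 and 1189 in OGFRL1 livers, against 1071 and 1020.1 in EGFP livers, a log2 fold change of 0.41 ± 0.18 in the fit of all probe sets. No direction can therefore be given for Scd1, while all 3 Scd2 probe sets were above 0 (0.34 to 0.70). Scd1 and Scd2 are close paralogs with 1 protein-coding gene between them on chromosome 19, and transcripts of one may bind probes of the other.

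Esterification joins acyl chains to glycerol, and its role group here includes the hydrolase Pnpla3. As reported, the group had the median nearest to that of all genes, at -0.13 with 4 of 8 members lower (0.22 with spike-in scaling). Relative to all genes, quantile normalization put desaturation nearer, at 0.02 against -0.09 for esterification. A signal minimum 4 times higher put elongation (-0.32) and the regulators (-0.29) nearer than esterification (-0.35). Dgat2, the acyltransferase that completes triglyceride from newly made fatty acids, had 1585 and 1522 in OGFRL1 livers, against 2220.5 and 2268 in EGFP livers. The arrays of each group nearly coincided, and the log2 fold change was -0.53 ± 0.13 (limma adjusted p = 0.126). Dgat1, its unrelated counterpart for the same step, overlapped between groups (0.09 ± 0.17). Gpam, the mitochondrial acyltransferase of the first step, had 2129.9 and 2072 in OGFRL1 livers, against 2820.5 and 2494 in EGFP livers (-0.34 ± 0.14, adjusted p = 0.314, and 0.01 with spike-in scaling). Its groups did not overlap, but the EGFP arrays differed by more than the OGFRL1 arrays did.

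Lpin1, a phosphatidate phosphatase and transcriptional coactivator, had 169 and 145 in OGFRL1 livers, against 174 and 295 in EGFP livers (-0.52 ± 0.26, limma adjusted p = 0.405). EGFP 1 lay almost at the OGFRL1 level, and without it the value was -0.90, while without EGFP 2 it was -0.15. Lpin2, its liver-rich relative, had 863 and 638 in OGFRL1 livers, against 905 and 945 in EGFP livers (-0.32 ± 0.17, adjusted p = 0.453, and 0.03 with spike-in scaling). It was -0.10 without OGFRL1 2 and -0.53 without OGFRL1 1. Agpat2 and Agpat3, which acylate lysophosphatidic acid, were at 0.06 ± 0.13 and 0.14 ± 0.16, and Pnpla3, a lipid droplet hydrolase that follows SREBP-1c, was dim at 0.21 ± 0.35. Under the deposited scaling and by the brightest probe sets, below 0 were thus the first step, the phosphatases and one of the alternatives for the last step, and the lysophosphatidic acid step was not. These are signs only, since none of these genes passed the threshold, and 2 of the 4 Agpat3 probe sets were below 0.

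Set side by side, the role medians ran from -0.73 for de novo synthesis through -0.36 for elongation and -0.23 for desaturation to -0.13 for esterification, with -0.26 for the 4 regulators and 0.04 for all genes. De novo synthesis was lowest in every setting, but the order of the other roles was not kept. A signal minimum 4 times higher put elongation at -0.29 (7 genes), desaturation at -0.48 (5 genes) and esterification at -0.32 (7 genes). The mean over probe sets put desaturation at -0.05 and esterification at -0.09. Array by array, against the EGFP mean, the de novo median was -0.78 on OGFRL1 1 and -0.79 on OGFRL1 2, and the EGFP arrays were at -0.03 and 0.03. The EGFP values mirror each other by construction, and opposite signs cancel in a median, so they do not show the EGFP spread. For Aacs, the widest of this role, EGFP 1 was at -0.45 and EGFP 2 at 0.45. The esterification median was -0.17 and -0.19 on the OGFRL1 arrays. The difference between roles was not tested, since members of a role are not replicates of a condition. Scaling to the spike-ins moved the median of all genes from 0.04 to 0.38, and the de novo median was then -0.38, that of elongation -0.01, desaturation 0.12, esterification 0.22 and regulators 0.09. Relative to all genes, de novo synthesis was at -0.78 and esterification at -0.17 under the deposited scaling. Median and spike-in scaling change each array by a common factor, so they can hardly move these values. Quantile normalization can, and it put them at -0.69 and -0.09. Quantile normalization put desaturation 0.02 above the median of all genes.

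**Figure D3:**
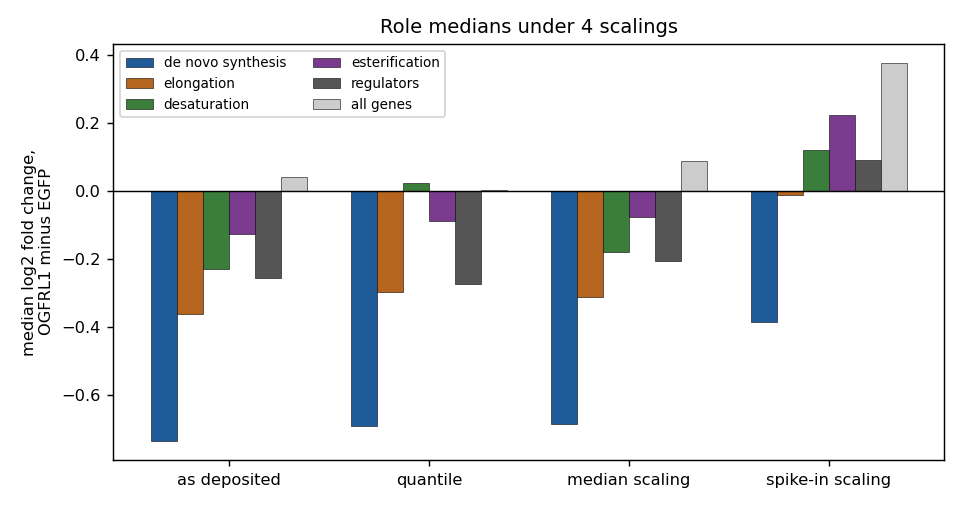
Median log2 fold change (y axis, OGFRL1 minus EGFP) of each role group and of all genes tested, under the deposited scaling and 3 others (x axis). The de novo median is the lowest bar in each scaling, from -0.73 to -0.38, while spike-in scaling lifts all bars and puts desaturation, esterification and regulators above 0. Median and spike-in scaling shift all bars almost equally, so the order of bars was nearly fixed under them.

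Bright genes as a whole read lower in OGFRL1 livers, and many members are bright. Among 516 genes with a mean signal over 2000 the median was -0.29, and 62.4% had both OGFRL1 arrays below both EGFP arrays. Of the 6 members in that range 4 did, and their median was -0.43. In the range from 500 to 2000 the 1536 genes had a median of -0.04 with 32.0% not overlapping and lower, against 13 of 17 members and a median of -0.45. The 7 members from 100 to 500 had a median of -0.18, against 0.05 for all genes there, and the 4 members under 100 had 0.36, against 0.09. The part of signal level in the members' difference was not tested.

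**Figure D4:**
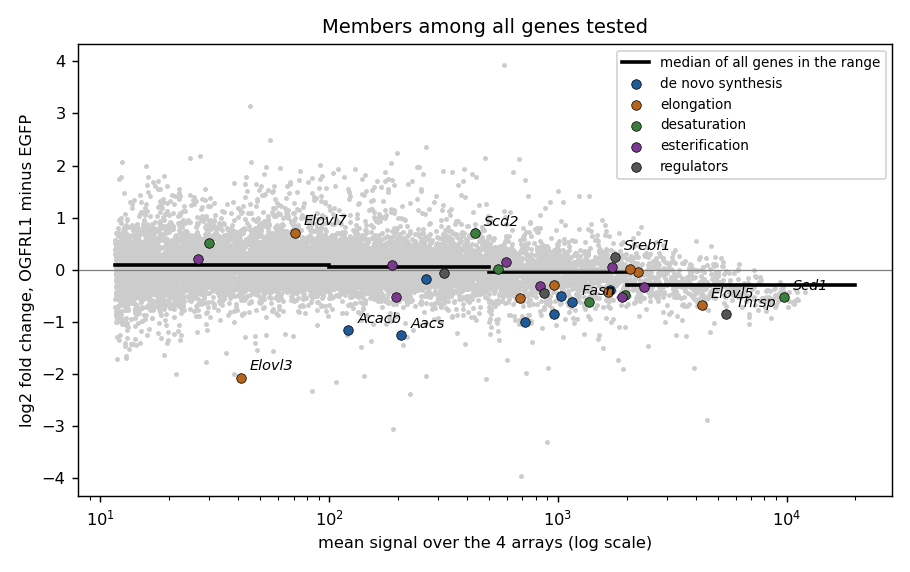
Log2 fold change (y axis, OGFRL1 minus EGFP) against mean signal over the 4 arrays (x axis, log scale) for all 11942 genes (grey) and the 34 members (coloured by role). Black lines are the medians of all genes in 4 signal ranges, which go from 0.09 under 100 to -0.29 over 2000; Thrsp and Elovl5 lie below that line, and Acacb, Aacs and Elovl3 lie lowest at modest signal.

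Many members were read by more than 1 probe set, which gives a second look at the same RNA but no further replicate. Of the 80 probe sets 67 passed the signal minimum and 49 of those were below 0. In the fit of all 34945 probe sets none passed the threshold (0% of them did), and the lowest adjusted p among the members' probe sets was 0.13. Of 22 members with at least 2 probe sets past the minimum, 18 had them all on the same side of 0. The exceptions were Scd1, Agpat3, Fads6 and Hsd17b12, of which the last 3 were near 0 on their brightest probe set too. Acss2 had -0.84 ± 0.28 on its brightest probe set and -1.22 ± 0.17 on a dimmer one, with signals of 354 and 405 in OGFRL1 livers, against 770 and 1019 in EGFP livers. That dimmer set, singled out after its values were seen, had much closer EGFP arrays than the brightest, at 891 and 1614. Me1 had -1.01 and -1.41, Thrsp -0.85 and -1.07, Aacs -1.26 and -1.03, and Elovl5 -0.68 and -0.80, so these low values recurred on a second probe set.

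**Figure D5:**
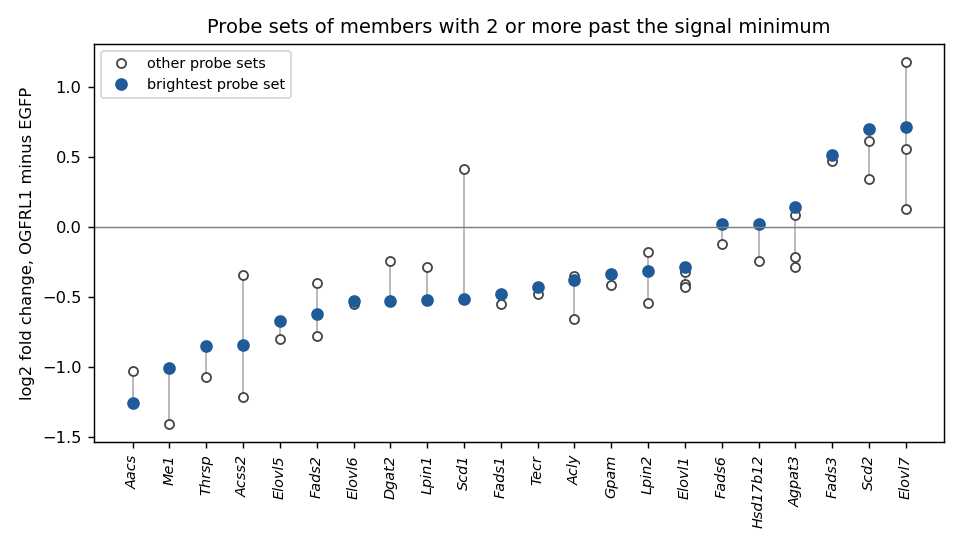
Log2 fold change (y axis, OGFRL1 minus EGFP) of each probe set past the signal minimum for the 22 members with at least 2 of them (x axis, ordered by the brightest set, filled). Open symbols are the other probe sets; Scd1 is the only member with one set at -0.52 and another at 0.41, and the 4 probe sets of Elovl7 and the 3 of Scd2 are all above 0.

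Of the other genes of fatty acid metabolism and its control, none tested passed the threshold in limma, and each list held at most 2 genes with an unadjusted p under 0.05. The counts of lower genes stand beside 44.4% of all genes tested. Among the other acyltransferases and phosphatases 5 of 9 were lower (median -0.02), with Mogat1, a monoacylglycerol acyltransferase, at -1.41 ± 0.25 (limma adjusted p = 0.0707). Mogat1 had 20.9 and 28.2 in OGFRL1 livers, against 62.4 and 79.1 in EGFP livers. Agpat5 was at 0.29 ± 0.16 and Gpat4 at -0.29 ± 0.18. Of other elongation and desaturation genes 2 of 5 were lower (median 0.10), with the dehydratases Hacd3 at -0.30 ± 0.13, Hacd1 at 0.27 ± 0.13 and Hacd2 at 0.26 ± 0.14. Acyl-CoA synthetases had 3 of 5 lower (median -0.27), with Acsm1, which activates medium chains, at -0.71 ± 0.13 (adjusted p = 0.072), Acsl5 at -0.30 ± 0.15 and Acsl4 at 0.28 ± 0.21.

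The control genes of SREBP and LXR had 6 of 8 lower (median -0.11), where 44.4% of all genes were lower. Scap, which escorts SREBP out of the endoplasmic reticulum, had 489 and 463 in OGFRL1 livers, against 720.4 and 746 in EGFP livers (-0.62 ± 0.13, limma adjusted p = 0.1001). Insig1, which holds Scap back and is itself an SREBP target, was at -0.43 ± 0.15, and Nr1h3, the LXR-alpha receptor, at -0.25 ± 0.16. Genes of glucose supply and NADPH had 4 of 5 lower (median -0.03), with Idh1 at -0.45 ± 0.13, Pgd at 0.26 ± 0.15 and Pklr, liver pyruvate kinase and a classic ChREBP target, at -0.25 ± 0.32. Pklr, Tkt (-0.01) and Taldo1 (-0.03) overlapped between groups. The NADPH-yielding Me1 and Idh1 thus read lower, while Pgd of the pentose phosphate pathway did not, and G6pdx was not measured. Idh1 had a mean signal of 4217, and 80.8% of genes over 2000 were lower. Mitochondrial fatty acid synthesis had 4 of 5 lower (median -0.38), with Mecr at -0.61 ± 0.15, Mcat at -0.40 ± 0.15 and Acsf3 at -0.38 ± 0.17.

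Cholesterol synthesis, the other arm of SREBP control, had a lower median than fatty acid synthesis. All 17 measured genes had both OGFRL1 arrays below both EGFP arrays (20.5% of all genes did), with a median of -0.95 against -0.73 for de novo fatty acid synthesis and -0.41 for the 34 members. Sc5d, a late sterol desaturase, had 1325 and 1170.3 in OGFRL1 livers, against 2787 and 2565 in EGFP livers, and fell by 1.10 on the log2 scale (SE 0.14, limma adjusted p = 0.0433). Fdps, farnesyl diphosphate synthase, fell by 1.09 (SE 0.14, adjusted p = 0.0456), and both were among the 18 genes (0.151%) called lower. Neither call held with no filter or no intensity trend, where limma called 0 genes (2179 and 1654 had an unadjusted p under 0.05). The difference between these lists was not tested.

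Markers of hepatocytes and of other cells were read on the same arrays. The 5 measured hepatocyte markers of 7 listed were all lower in OGFRL1 livers (44.4% of all genes were), with a median of -0.55. Their summed signals were 35020 and 38750 in OGFRL1 livers, against 64663 and 45117 in EGFP livers. All 5 had a mean signal over 2000, a range in which 80.8% of genes were lower and the median was -0.29. The hepatocyte median was lower than that of elongation, desaturation and esterification and above that of de novo synthesis. The 4 cycling markers had sums of 1552 and 1924 in OGFRL1 livers, against 711 and 386 in EGFP livers, and the 5 stellate cell markers 695 and 868 in OGFRL1 livers, against 316 and 348 in EGFP livers. Among these only Birc5, a mitotic survivin, passed the threshold, with a log2 fold change of 2.36 ± 0.21 (limma adjusted p = 0.0364). Summed macrophage markers overlapped, at 1658 and 2443 in OGFRL1 livers, against 3449 and 1427 in EGFP livers, as did 4 cholangiocyte markers (102 and 109 in OGFRL1 livers, against 107.5 and 108 in EGFP livers) and 4 endothelial ones (455 and 550.5 in OGFRL1 livers, against 591 and 443 in EGFP livers). Of the adipocyte markers 5 of 7 were measured, with Adipoq between 1.39 and 2.64 and Lep between 0.505 and 1.83 on all arrays, which is below the signal minimum. Cidea had 18.9 and 21.8 in OGFRL1 livers, against 5.86 and 4.37 in EGFP livers, of a summed signal of 25.4 and 27.4 in OGFRL1 livers, against 13.9 and 11.6 in EGFP livers. The part of hepatocyte content, of cycling cells and of stellate cells in the members' values was not tested.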

How the data were processed

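Total RNA of regenerating mouse liver (100 ng for each sample, per the labels) was hybridised to 4 Affymetrix arrays of 1 colour. The deposited values are signal intensities per probe set on a linear scale, made by the authors with MAS5 per the submitters' processing notes; no version of it is recorded there. The deposited intensities had a 2% trimmed mean of 100.001 on each array, so each array was scaled as a whole. Of 45101 probe sets 64 were controls, 932 carried several gene symbols, 9160 carried none and 34945 carried a single one, and only these last were used. Gene identifiers of 34741 were found in the RefSeq table, and 0 symbols needed an update.

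From these values log2(signal + 3.51) was computed, the pseudocount being the 25th percentile of all values. The probe set with the highest mean signal stood for a gene, and genes with a mean of at least 11.6, the median over probe sets, were kept (11942). limma 3.58.1 (R 4.3.3) tested the difference of OGFRL1 from EGFP with lmFit and an intensity trend in eBayes (2-sided, 2 residual and 4.48 prior degrees of freedom), adjusted by Benjamini-Hochberg over all genes, with a threshold of 0.05. All probe sets with 1 symbol were fitted likewise, without the filter. The fit was also run on simulated data with independent errors drawn from its own variance model, which says nothing of array-wide shifts. Precision is limited by the 2 arrays per group.

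Members, lists and tests were chosen with earlier results of these data known. All members are named; arrays are given for Fasn, Acly, Scd1, Srebf1 and the 4 members of each role with the smallest p, up to 3 genes by p of each other list, and others after their values were seen, as are Acaca and the second probe sets. The fit was repeated with quantile normalization, with arrays scaled to equal medians or to the spike-ins, 4 times the pseudocount, no filter, a filter 4 times higher, the mean over probe sets, no trend, the replicate number as a block, and each array left out. Array numbers 1 and 2 occur in both groups, with nothing in the labels that ties them to a common animal or batch. Promoters were read and figures drawn with Python 3.11.15 (pandas 2.3.3, matplotlib 3.10.9).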

Additional observations from a re-analysis of the deposited data

How the results depend on the processing

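Of 170 values of single members under the scalings, the larger pseudocount and the mean over probe sets, 12 changed sign, 7 passed the threshold with the same sign and 151 did neither. Of 136 values with 1 array left out, 10 changed sign, 21 passed with the same sign and 105 did neither. In all, 12 members changed sign under at least 1 of these settings. The filters, the trend, the fit of all probe sets and the replicate block leave each fold change as it is, and 1 of their 167 values passed the threshold. The number of members below 0, 24 as reported, ran from 18 with spike-in scaling to 27. With 2 arrays per group, 1 array can decide a call, and an arm left with 1 array is assumed to vary like the other arm. The number of genes past the threshold, 61 as reported, was 4 with quantile normalization, 1511 with spike-in scaling, 94 with 4 times the pseudocount, 0 with no filter, 21 with the stricter filter, 13 with the mean over probe sets and 0 without the intensity trend, and ran from 0 (without OGFRL1 1) to 856 (without EGFP 2) when 1 array was left out, with 2 without OGFRL1 2 and 619 without EGFP 1. The number of members past it, 0 as reported, was 1 with median scaling, 5 with spike-in scaling, 1 with 4 times the pseudocount and 0 to 13 with 1 array left out (13 without EGFP 1, 8 without EGFP 2). Where limma called 0 genes, an unadjusted p under 0.05 was found for 2179 genes with no filter, 1654 without the trend and 922 without OGFRL1 1. The cause of these differences was not tested.

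With the replicate number as a block, 1 member, Elovl3, passed the threshold (adjusted p = 0.04996). Same-numbered arrays correlated at -0.276 in their deviations from the group means over 11942 genes, so the numbers are not shown to pair the arrays. The crossed pairing, chosen after seeing the data, gave 934 genes and 11 members past the threshold.

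The median of all members, -0.41 as reported, was -0.29 with quantile normalization, -0.36 with median scaling, -0.058 with spike-in scaling, -0.30 with the mean over probe sets and -0.39 to -0.31 with 1 array left out. The de novo median, -0.73, was -0.69, -0.68, -0.38 and -0.56 under the same 4 settings and -0.79 to -0.59 with 1 array left out. The elongation median was -0.30, -0.31, -0.012 and -0.25 under them, -0.29 with the stricter filter, and -0.39 to -0.30 with 1 array left out. The desaturation median was 0.023, -0.18, 0.12 and -0.054, then -0.48 with the stricter filter, and -0.26 to -0.14 with 1 array left out. The esterification median was -0.090, -0.077, 0.22 and -0.088, then -0.32 with the stricter filter, and -0.19 to -0.10 with 1 array left out. The stricter filter left out Elovl3, Fads3 and Pnpla3, so its medians are over 7 elongation, 5 desaturation and 7 esterification genes. The regulator median was 0.092 with spike-in scaling and -0.34 to -0.17 with 1 array left out.

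Signs turned with quantile normalization for Elovl2 (0.062) and Scd1 (0.028), and with median scaling for Elovl2 (0.010). With spike-in scaling they turned for Acaca (0.16), Elovl1 (0.060), Elovl2 (0.31), Gpam (0.014), Lpin2 (0.033) and Mlxipl (0.28). With the mean over probe sets they turned for Hsd17b12 (-0.11), Fads6 (-0.054) and Agpat3 (-0.071). With 1 array left out, Agpat3 ran from -0.027 to 0.31, Dgat1 from -0.049 to 0.22, Elovl2 from -0.32 to 0.25, Fads6 from -0.27 to 0.31, Hsd17b12 from -0.23 to 0.27, Mlxipl from -0.26 to 0.14 and Pnpla3 from -0.24 to 0.66.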
